A study of Mus musculus with 6 samples.

Results

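The genes described here are the 7 inhibitors of cyclin-dependent kinases (Cdkn1a, Cdkn1b, Cdkn1c, Cdkn2a, Cdkn2b, Cdkn2c and Cdkn2d) and the 3 D-type cyclins (Ccnd1, Ccnd2 and Ccnd3), 10 of the 14912 genes in the deposited table. They were chosen by name as gene families, with the fold changes between these same 6 libraries already known, so the calls given for them describe the fit and are not independent support for it. The libraries came from wild-type (WT) C57BL/6J mouse bone marrow, cultured as dendritic cells with the FLT3 ligand FLT3LG at 50 ng/ml, whose medium was renewed on day 7. In the control group, 3 samples received FLT3LG without midkine. In the midkine group, 3 samples were also given midkine during the last 2 days, as the recombinant human protein at 10 ng/ml; midkine is a secreted factor that binds heparin. RNA was read by a 3' end method, which yields reads near the end of each transcript. The titles of all 6 samples name the cells tol_DC, a label that the titles do not explain. Age, sex and any sorting of the cells are not given in the labels. Whether the replicates stem from separate animals or cultures is likewise unstated. The p-values therefore cover the variation among these 6 samples alone, and that variation may be technical.

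D-type cyclins bind the kinases CDK4 and CDK6 and start the phosphorylation of the retinoblastoma protein, which releases E2F transcription factors and commits a cell to DNA replication. The INK4 inhibitors, encoded by the Cdkn2 genes, bind CDK4 and CDK6 and keep cyclin D off them. The CIP/KIP inhibitors, encoded by the Cdkn1 genes, bind complexes of cyclin and kinase, above all those with CDK2. In blood cell development, leaving the cell cycle goes with the last steps of maturation, and these genes set much of that balance.

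With midkine, 5 of the 10 genes rose and 2 fell, whereas 3 were not called (limma, adjusted p under 0.05 over all genes). Of the 11844 genes that entered the test 42.7% were called, 20.9% as higher and 21.8% as lower. In 7 of the 10 genes the 3 midkine values did not overlap the 3 control values, as held for 51.3% of the genes tested. All 10 genes passed the filter of a mean of at least 10 normalised read counts, but Cdkn1c did so through its midkine libraries alone, since its control mean was 4.28. Values are read counts divided by a size factor for each library, and fold changes are fitted on log2(value + 1). In such bulk samples, fewer cells of a type and less RNA per cell cannot be told apart.

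The depth was 5089338 to 5532055 reads per control library and 5685055 to 6453768 per midkine library. The share of reads from mitochondrial ribosomal RNA was 9.33% to 9.86% in control and 18.1% to 20.9% in midkine libraries, and scaling to total counts gave other fold changes than the deposited scaling. It moved the median log2 fold change of all genes from -0.0086 to -0.27, and each gene below shifted by about that amount. Relative to the median of all genes, the log2 fold change of Cdkn1a was 1.56 under either scaling and that of Ccnd1 was -0.39.

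**Figure D1:**
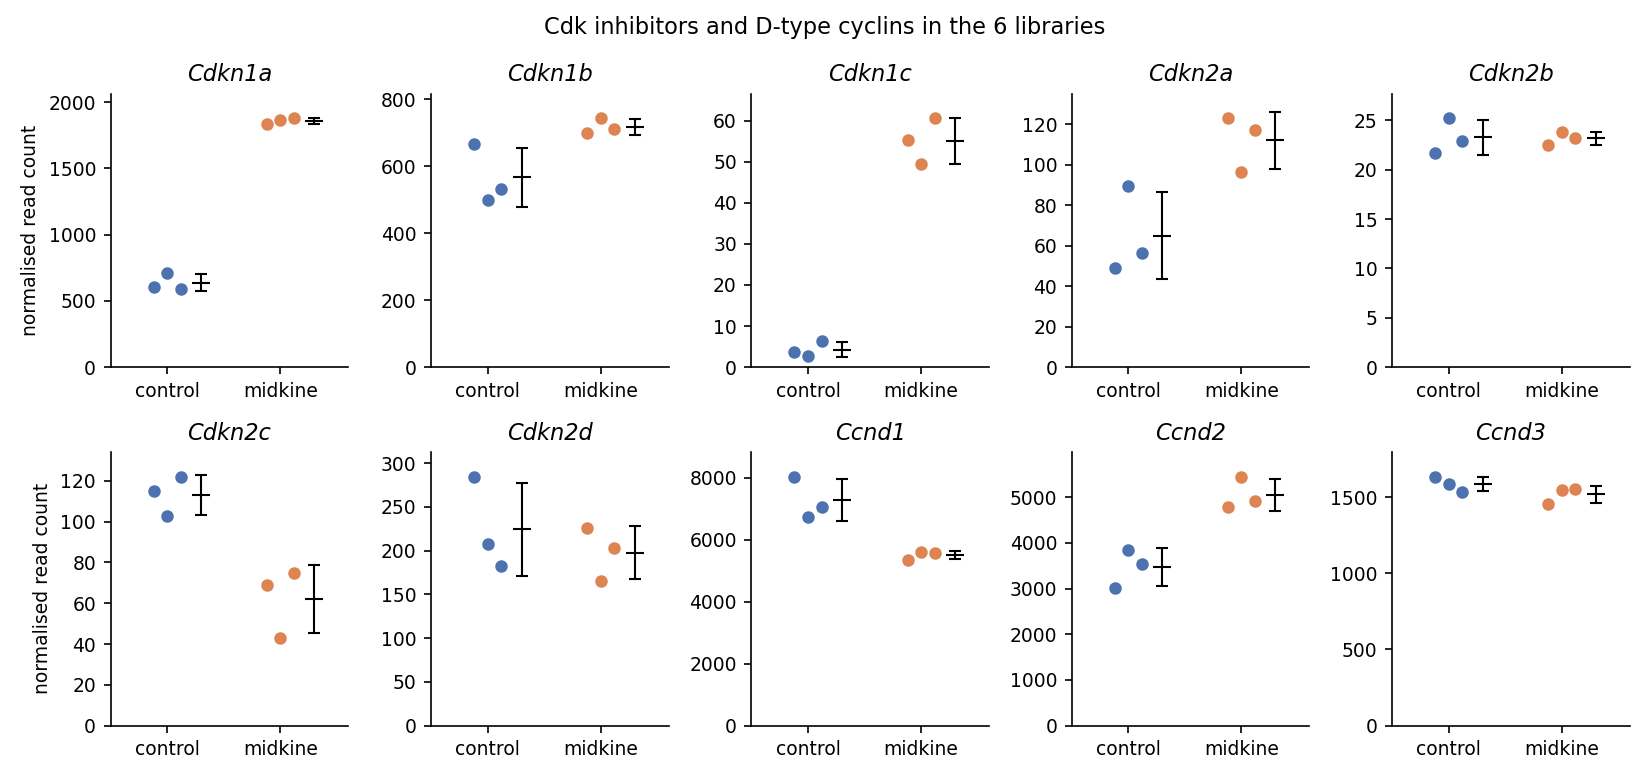
Normalised read counts (vertical axes, each from 0) of the 10 genes in 3 control and 3 midkine libraries. Points are libraries and the black marks give mean ± SD. Cdkn1c, Cdkn1a, Cdkn1b, Cdkn2a and Ccnd2 lay higher in all 3 midkine libraries, Cdkn2c and Ccnd1 lay lower, and the groups of Cdkn2b, Cdkn2d and Ccnd3 overlapped.

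All 3 CIP/KIP genes rose, by very different amounts, although the rise of Cdkn1b was not called with scaling to total counts. Cdkn1a encodes p21, the inhibitor through which p53 stops the cell cycle. It lies on chromosome 17 from 29090976 to 29100727 of GRCm38. Its normalised read counts were 606, 713 and 592 in the control libraries and 1834, 1867 and 1878 in the midkine libraries. The midkine libraries lay close together, at 1860 ± 22.4 (SD, n = 3), and far above the control mean of 637 ± 66.0. The fitted log2 fold change was 1.55 (SE 0.08, adjusted p = 6.7e-14), or 2.93-fold. It stayed between 1.29 and 1.63 over 19 alternatives and was called in each.

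Cdkn1c encodes p57, an inhibitor expressed from the maternal copy of an imprinted region. It lies on chromosome 7 from 143458339 to 143461050. Control libraries held 4, 3 and 6 reads of it, and midkine libraries 49, 54 and 60. As normalised read counts these were 3.78, 2.80 and 6.25 against 55.2, 49.5 and 60.5, so a transcript near the limit of detection in control cultures was measured clearly with midkine. The exact Poisson 95% intervals, which cover counting error only, reached 13.1 reads at most in a control library and began at 36.3 reads or above in the midkine libraries. The fitted log2 fold change was 3.46 (SE 0.32, adjusted p = 2.5e-09), and the ratio of the group means was 12.9. At such low counts the fitted value follows the pseudocount, and it was 3.6 with 0.5, 2.71 with 5 and 3.67 in edgeR on the recovered reads.

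Cdkn1b encodes p27, which accumulates in resting cells and is controlled largely through degradation of the protein. It lies on chromosome 6 from 134920401 to 134925513. Its counts were 666, 500.1 and 533 in control and 697, 742 and 711 in midkine libraries. Control replicate 1 came close to the midkine values, and the groups did not overlap. The log2 fold change was 0.35 (SE 0.10, adjusted p = 0.00436), the smallest among the called genes of the 10. It was 0.09 with scaling to total counts (adjusted p = 0.457), and the adjusted p was 0.0735 without a variance trend (range over the 19 alternatives 0.000102 to 0.457). The ratio of Cdkn1a to Cdkn1b, in which the scaling of a library cancels, was 0.911, 1.43 and 1.11 in control and 2.63, 2.51 and 2.64 in midkine libraries. The change of this ratio, rather than its level, can be read, since the yield of 3' reads differs between genes.

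The 250 bases before each annotated start were read for the members found in the RefSeq table (GRCm38.p6). It holds 7 of the 10 genes with 11 starts, and Cdkn1c, Ccnd1 and Ccnd2 are not in it. Both starts of Cdkn1a, a known target of p53, are shown, chosen after the values of the p53 pathway genes described below had been seen. A part of p53 in the rise of Cdkn1a was not tested. Each window is printed 5' to 3' on the + strand, up to the first base of an annotated exon of the gene, with motif matches in capitals.
Cdkn1a, upstream start, chr17:29090729-29090975: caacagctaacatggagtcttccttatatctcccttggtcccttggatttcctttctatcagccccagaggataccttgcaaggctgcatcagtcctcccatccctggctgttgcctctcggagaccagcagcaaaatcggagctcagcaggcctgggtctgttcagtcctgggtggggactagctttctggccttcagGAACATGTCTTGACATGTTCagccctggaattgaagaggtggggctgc
Cdkn1a, downstream start, chr17:29093519-29093768: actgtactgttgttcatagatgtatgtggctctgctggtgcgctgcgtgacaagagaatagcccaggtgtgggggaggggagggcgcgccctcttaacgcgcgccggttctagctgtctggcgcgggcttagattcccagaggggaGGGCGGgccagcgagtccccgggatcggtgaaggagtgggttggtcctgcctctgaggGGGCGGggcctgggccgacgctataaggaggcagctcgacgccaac
The capitals in the upstream window match the consensus p53 element of 20 bases with 1 mismatch and begin 51 bases before the start. Such a match, without a spacer and with at most 1 mismatch, was present in 25 of 32851 windows of this length (0.0761%). It was searched for after this window had been read. In the downstream window the capitals mark GC boxes (GGGCGG), 104 and 46 bases before the start, a motif present in 32.7% of the windows. A match of letters is a description of the sequence, and binding was not measured.

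Of the 4 INK4 genes 1 was higher, 1 lower and 2 not called, near the shares over all genes tested (20.9% higher and 21.8% lower). Cdkn2a encodes p16 and, from another first exon and reading frame, p19ARF, which stabilises p53. It lies on chromosome 4 from 89274471 to 89294653. Its counts were 49.1, 89.6 and 56.3 in control and 123, 96.2 and 117 in midkine libraries. The groups did not overlap, but control replicate 2 lay near midkine replicate 2. The log2 fold change was 0.82 (SE 0.18, adjusted p = 0.000754), or 1.76-fold, and ranged from 0.64 to 1.07 when each library was left out in turn.

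The transcripts for p16 and p19ARF share their 3' exons, so 3' reads do not tell them apart. Both starts are shown because they lie far apart and differ in sequence. The windows are printed 5' to 3' on the - strand, with motif matches in capitals.
Cdkn2a, p19ARF start, chr4:89294654-89294869: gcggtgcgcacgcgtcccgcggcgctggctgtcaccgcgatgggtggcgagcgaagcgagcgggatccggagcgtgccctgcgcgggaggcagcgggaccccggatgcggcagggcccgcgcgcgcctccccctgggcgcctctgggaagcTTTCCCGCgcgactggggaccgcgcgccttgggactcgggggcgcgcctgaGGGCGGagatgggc
Cdkn2a, p16 start, chr4:89282193-89282442: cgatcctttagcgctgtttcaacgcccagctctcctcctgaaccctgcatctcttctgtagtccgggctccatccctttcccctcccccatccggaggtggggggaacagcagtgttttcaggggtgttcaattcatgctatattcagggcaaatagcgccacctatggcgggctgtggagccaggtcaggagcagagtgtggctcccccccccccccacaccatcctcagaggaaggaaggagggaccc
In the p19ARF window the first capitals mark an E2F site, 99 bases before the start, and the next a GC box at 48 bases. E2F sites were searched as TTTCCCGC, TTTGGCGC, TTTCGCGC and TTTGCCGC, and 1.86% of all windows held at least 1. The window of p16 held none of the motifs searched on both strands, which also included AP-1 (TGACTCA or TGAGTCA, 4.46% of windows), cAMP response (TGACGTCA, 1.55%), CCAAT (33.9%), FOXO (TGTTTAC, 3.17%) and STAT sites (TTCNNNGAA, 7.02%). Among the other windows, that of Cdkn1b held CCAAT boxes at 161 and 35 bases before the start and a GC box at 61, and that of Cdkn2b a cAMP response element at 46. GC boxes also lay in windows of Ccnd3, Cdkn2c and Cdkn2d, and CCAAT boxes in windows of Ccnd3 and Cdkn2d. The Cdkn2c window with GC boxes lies in annotated exons of that gene over all 250 bases, the Cdkn2d window over 198. The GC boxes of these 2 genes fall in those exon bases. A FOXO site began 243 bases before the upstream start of Ccnd3. No matches overlapped each other in the windows of the 7 genes. That letters of a motif are missing from a window says nothing about the factors.

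Cdkn2b encodes p15, an inhibitor known as a target of TGF-beta signalling. It lies 11646 bases from Cdkn2a on chromosome 4, from 89306299 to 89311039. Its counts were 21.7, 25.2 and 22.9 in control and 22.5, 23.8 and 23.2 in midkine libraries. The groups overlapped fully, with a log2 fold change of -0.0033 (95% interval -0.52 to 0.52, adjusted p = 0.993). With 20 to 27 reads per library, a change smaller than that interval was not detectable at this depth. The ratio of Cdkn2a to Cdkn2b was 2.26, 3.56 and 2.45 in control and 5.45, 4.04 and 5.04 in midkine libraries, so these neighbours did not keep a fixed ratio.

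Cdkn2c encodes p18, an INK4 protein that restrains the division of blood progenitors. It lies on chromosome 4 from 109660876 to 109667189. Its counts fell from 115, 103 and 122 in control to 68.7, 43.1 and 74.7 in midkine libraries. Midkine replicate 2 was the lowest, and each midkine value lay below each control value. The log2 fold change was -0.89 (SE 0.18, adjusted p = 0.000218), or 1.85-fold lower, and it was -0.65 without midkine replicate 2. The ratio of Cdkn2a to Cdkn2c was 0.587 ± 0.248 in control and 1.86 ± 0.340 in midkine libraries (SD, n = 3 each).

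Cdkn2d encodes p19INK4d, the remaining INK4 inhibitor, on chromosome 9 from 21288410 to 21291407. Its counts were 284, 207 and 182 in control and 225, 165 and 203 in midkine libraries. The groups overlapped, and control replicate 1 stood above the other libraries. The log2 fold change was -0.17 (95% interval -0.46 to 0.12, adjusted p = 0.348). It was 0.01 without control replicate 1, and -0.43 and called with scaling to total counts (adjusted p = 0.0133, range over the 19 alternatives 0.0133 to 0.955).

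**Figure D2:**
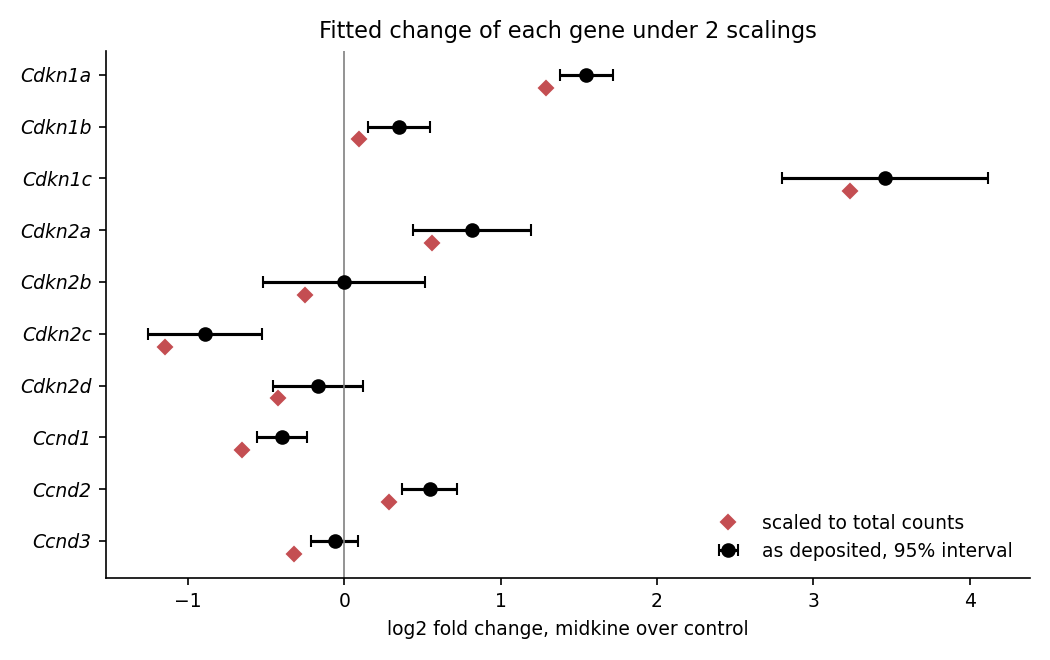
Fitted log2 fold change of each gene, midkine over control (horizontal axis). Black points with bars give the value as deposited with its 95% interval, and red diamonds the value after scaling to total counts, which lay lower for each gene (Cdkn1b 0.35 and 0.09, Ccnd3 -0.06 and -0.32).

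Among the D-type cyclins, Ccnd1 fell and Ccnd2 rose, while Ccnd3 was not called. Ccnd1 encodes cyclin D1, which links growth factor signals to the cycle in many cell types. It lies on chromosome 7 from 144929931 to 144939925. Its counts were 8023, 6739 and 7053 in control and 5355, 5592 and 5572 in midkine libraries. The midkine values spread little, at 5506 ± 132 (SD, n = 3), below the control mean of 7271 ± 669. The log2 fold change was -0.40 (SE 0.08, adjusted p = 0.000197), or 1.32-fold lower. With quantile normalization it was -0.70 and with scaling to total counts -0.66, so its size depended on the scaling and its direction did not. The 3' end of Ccnd1 overlaps exons of LTO1 on the other strand, whose mean count was 65.4 in control and 67.4 in midkine libraries.

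Ccnd2 encodes cyclin D2, the D-type cyclin prominent in lymphoid and other blood cells, on chromosome 6 from 127125162 to 127152193. Its counts were 3023, 3849 and 3537 in control and 4789, 5445 and 4915 in midkine libraries. Each midkine value was above each control value, and control replicate 1 was the lowest. The log2 fold change was 0.55 (SE 0.08, adjusted p = 9.9e-06), or 1.46-fold. It was 0.34 with quantile normalization and 0.29 with scaling to total counts, and was called in both.

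Ccnd3 encodes cyclin D3, which is broadly expressed and needed for the expansion of several blood lineages, on chromosome 17 from 47505051 to 47599691. Its counts were 1632, 1588 and 1535 in control and 1452, 1546 and 1555 in midkine libraries. The groups overlapped, with a log2 fold change of -0.06 (95% interval -0.22 to 0.09, adjusted p = 0.527). With scaling to total counts it was -0.32 and called (adjusted p = 0.0025, range over the 19 alternatives 0.0025 to 0.792). The 3' end of Ccnd3 overlaps exons of Bysl on the other strand, which had mean counts of 71.3 and 71.4.

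The mix of D-type cyclin reads shifted, and this measure is free of the scaling between libraries. Ccnd1 made up 63.3%, 55.3% and 58.2% of the summed counts of the 3 cyclins in control and 46.2%, 44.4% and 46.3% in midkine libraries. Ccnd2 made up 23.8%, 31.6% and 29.2% in control and 41.3%, 43.3% and 40.8% in midkine libraries. The groups did not overlap for either gene, and control replicate 1 was the farthest from the midkine libraries for both. The share of Ccnd3 was 12.9% ± 0.190 in control and 12.6% ± 0.315 with midkine (SD, n = 3 each). The sum itself was 12326 ± 306 in control and 12074 ± 494 in midkine libraries, with overlapping groups. The ratio of Cdkn1a to Ccnd1 reads was 0.0756, 0.106 and 0.0839 in control and 0.343, 0.334 and 0.337 in midkine libraries.

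**Figure D3:**
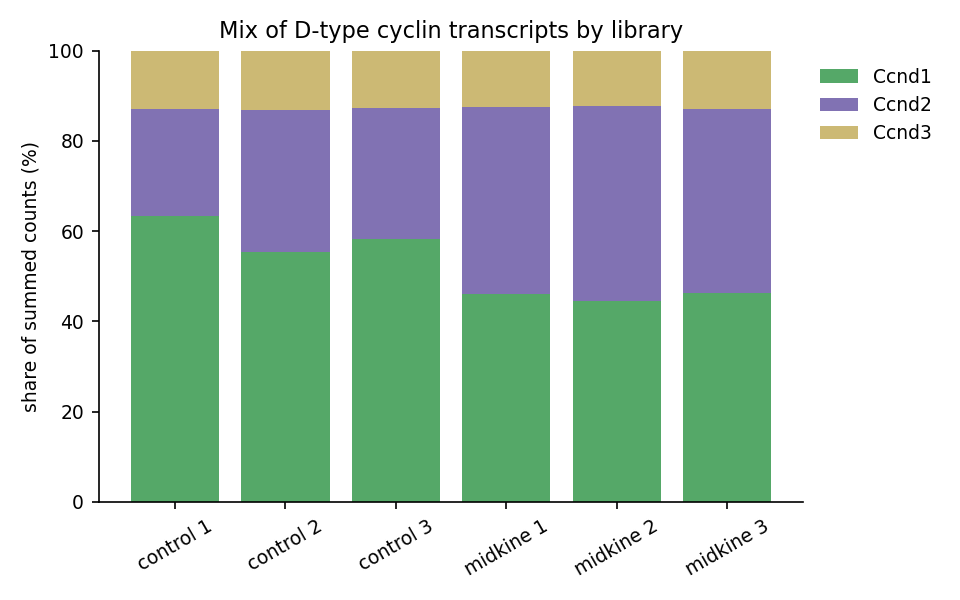
Share of Ccnd1, Ccnd2 and Ccnd3 in their summed normalised read counts (vertical axis, percent) in each of the 6 libraries. The Ccnd1 share was at least 55.3% in the control libraries and at most 46.3% in the midkine libraries, the Ccnd2 share rose, and the Ccnd3 share stayed between 12.3% and 13.0%.

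Most partners of these genes in the first gap phase fell. Of 19 kinase, pocket protein and E2F genes 12 fell and Rb1 alone rose, at a median log2 fold change of -0.45, against -0.0086 over all genes. The shares over all genes tested were 21.8% lower and 20.9% higher. E2f1, an activating E2F factor, had a mean of 232 ± 18.7 normalised read counts in control and 121 ± 15.6 in midkine libraries (SD, n = 3 each), and its log2 fold change was -0.94 (SE 0.12). E2f7 (-1.17) and E2f8 (-0.94), which repress E2F targets and are E2F targets themselves, fell as well. The E-type cyclin genes Ccne1 (-1.03) and Ccne2 (-1.13), which act after cyclin D, also fell. The kinase partners of the D-type cyclins, Cdk4 (-0.38) and Cdk6 (-0.40), were lower by amounts near that of Ccnd1. Rb1, which encodes the retinoblastoma protein, rose by 0.39 on the log2 scale, and with scaling to total counts it was at 0.13 and not called (adjusted p = 0.355).

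Cyclins and kinases of later phases were lower as well, with 8 of 10 down and none up (median -0.66), against 21.8% lower over all genes tested. Ccna2, the cyclin of replication and entry to mitosis, fell from a mean of 179 in control to 81.3 in midkine libraries, with a log2 fold change of -1.13 (SE 0.13). Cdk1 (-0.83), Plk1 (-0.82), Ccnb2 (-0.67) and Pkmyt1 (-0.65), which encode mitotic kinases, a mitotic cyclin and an inhibitory kinase of CDK1, fell too. Among 11 genes for turnover of these inhibitors and cyclins 4 fell, none rose and 7 were not called (median -0.11). Of all genes tested 42.7% were called, so this list as a whole is not read as a fall. Cks1b (-0.99) encodes the cofactor with which SKP2 marks p27 for degradation, and its relative Cks2 (-0.88) fell with it. The ubiquitin ligase genes Fbxw7 (-0.25) and Fbxo4 (-0.38) were called near the threshold, at adjusted p = 0.0382 and 0.0457. Skp2 itself was not called. The number that fell was 2 without control replicate 3, without midkine replicate 2, without a variance trend and in DESeq2, and 8 with scaling to total counts.

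Genes of the p53 pathway were higher in the main. Of 21 measured genes 14 rose and 2 fell (median 0.42), although total counts as the scale left 5 higher and 2 lower. With the deposited scaling 20.9% of all genes tested were higher and 21.8% lower. Gdf15, a stress-induced cytokine, rose by 3.39 on the log2 scale (SE 0.14), and its mean was 142 ± 40.1 in control and 1449 ± 70.8 with midkine (SD, n = 3 each). The next genes in order of p were Plk2 (2.01), Gadd45a (1.73), Zmat3 (0.76) and Pmaip1 (0.60), and of these Gdf15, Gadd45a and Pmaip1 are also known as targets of other stress pathways. Mdm2, the ligase that degrades p53 and is its target, had a log2 fold change of 0.49. Trp53, which encodes p53, fell by 0.50, and the p53 target Sesn1 fell by 0.57. Without a variance trend 9 of the genes rose, and without control replicate 3 the number that fell was 1.

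Among 22 regulators known to act on transcription of the inhibitors or cyclins, 6 rose, 2 fell and 14 were not called (median 0.12). As 42.7% of all genes tested were called (20.9% higher, 21.8% lower), the genes below are given as single values. Smad7, a feedback inhibitor and target of TGF-beta signalling, rose by 1.15 on the log2 scale (SE 0.13; means 151 in control and 340.2 with midkine), and Smad3, a mediator of that pathway, rose by 0.69. Mxd1 (1.01), which opposes MYC, rose, and Myc, which represses Cdkn1a and activates Ccnd2, fell by 0.45. Kdm6b (0.66), a demethylase of the polycomb mark, rose, and Ezh2 (-0.28), which writes that mark, had a lower mean with overlapping groups. The adjusted p was 0.0179 for Ezh2 and 0.0372 for Myc, and no regulator was called lower without control replicate 3 or without midkine replicate 2. With scaling to total counts 4 regulators were higher and 9 lower.

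**Figure D4:**
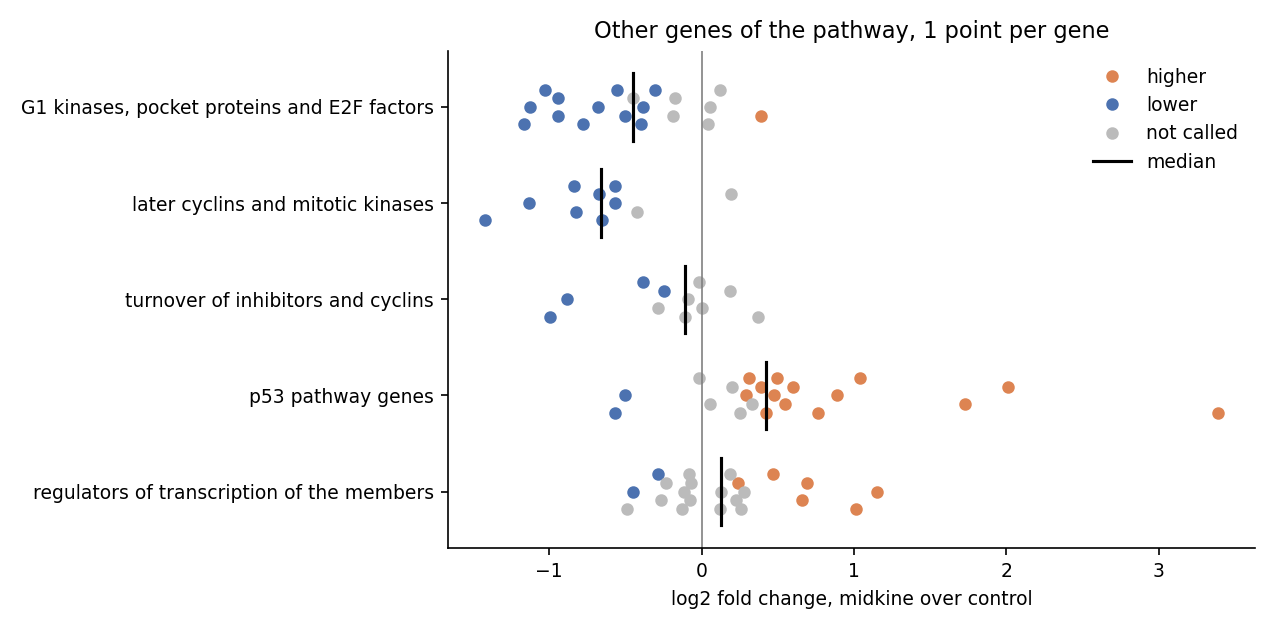
Log2 fold change, midkine over control (horizontal axis), of the genes in 5 pathway lists, with 1 point per gene coloured by its call and a black line at the list median. The medians were -0.45, -0.66, -0.11, 0.42 and 0.12 from top to bottom.

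Markers of the cell types in these cultures moved between the same groups, in which 20.9% of all genes tested were higher and 21.8% lower. Of the 7 stromal markers measured, 6 rose and Cxcl12 fell, with none at 0, and Lum was not analysed here. Their summed normalised count was 13866 to 17164 in control and 36205 to 39137 in midkine libraries. Markers of plasmacytoid dendritic cells fell in 6 of 7 cases, with sums of 5254 to 5450 and 1416 to 1491. Type 1 conventional dendritic cell markers fell in 6 of 6 cases, though the groups of Batf3 overlapped. Their sums were 20098 to 23233 and 10368 to 11797, most of it from Irf8. Of 6 general dendritic cell genes, each present in both groups, Itgax (0.83) and H2-Ab1 (0.27) rose, Zbtb46 (-0.47) fell, and Flt3, H2-Aa and Cd74 were not called. Their sums were 44349 to 47659 and 50811 to 54107, most of it from H2-Aa, H2-Ab1 and Cd74. Of 3 neutrophil markers tested S100a8 and S100a9 fell and Mpo was not called, while Ly6g, Elane, Camp and Ltf were under the filter. Sums over the whole list were 471 to 589 in control and 35.7 to 63.1 with midkine, most of it from S100a8 and S100a9. Macrophage markers were mixed, with 2 higher and 4 lower of 8, and among 5 markers of type 2 conventional dendritic cells 3 rose and none fell. The part of these shifts in the changes of the inhibitors and cyclins was not tested.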

How the data were processed

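The authors deposited signal values for 14912 genes in 6 libraries, which are counts of reads after division by each library's size factor. Dividing a column by the value of 1 read gave back the reads, and 100% of values came out whole within 1e-06. Per the submitters' processing notes, TopHat2 2.0.10, Bowtie 1.0.0 and HTSeq were among the tools, and the builds were GRCm38 and mm10. Roles, annotation and strand setting are not stated there, and reads of genes overlapping on the other strand may not be separated.

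Genes with a mean of at least 10 were fitted with limma 3.58.1 (R 4.3.3, variance trend) on log2(value + 1), midkine against control, and adjusted by Benjamini-Hochberg over 11844 genes. The test was checked on simulated data with known library factors, a setting that says nothing about the choice of scaling. The members and lists were chosen with earlier results of these data known. Named genes are the 10 members and, per pathway list, up to 5 called genes with the smallest p. Cdk4, Cdk6, Rb1, Mdm2, Trp53, Sesn1, Myc and Skp2 were named after their values were seen. Alternatives were other pseudocounts, filters and scalings, no trend, a replicate block, leaving out each library, and edgeR 4.0.16 and DESeq2 1.42.0 on recovered reads. Positions are from GENCODE vM21, promoter windows from RefSeq.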

Additional observations from a re-analysis of the deposited data

How the results depend on the processing

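The direction and call of Cdkn1a, Cdkn1c, Cdkn2a, Cdkn2c, Ccnd1 and Ccnd2 held under each of 19 alternatives. For Cdkn1c this adds no support, since it passed the main filter through its midkine libraries alone (control mean 4.28). With total counts as the scale, 1277 genes were higher and 4823 lower in place of 2481 and 2578 (20.9% higher among calls, against 49.0%), and 38.9% without ribosomal RNA in the totals. With total counts 4 of the 10 genes were lower: Cdkn2d (-0.43) and Ccnd3 (-0.32) became called, and Cdkn1b (0.0927) lost its call. With ribosomal RNA left out of the totals, these 3 genes were at -0.25, -0.14 and 0.27, and the calls of the 10 genes were those of the deposited scaling. The share of mitochondrial ribosomal RNA differed between the groups, and its part was not tested. Cdkn1b at 0.35 was not called without a variance trend, and the cause was not tested. Values of Cdkn2b lay on the other side of 0 in edgeR (0.00174) and DESeq2 (0.00203), and between -0.0499 and 0.0525 as each library was left out. Cdkn2d ranged from -0.31 to 0.0127 in the same fits. These 2 genes were not called there, and the cause was not tested. The replicate block called 5160 genes, against 5059, and changed no call among the 10 genes. Same-numbered libraries had correlations of deviations from -0.06 to 0.03, and differently numbered ones from -0.04 to 0.05. These values show no pairing by number, and with 3 libraries per group they cannot exclude one. Of the 24 pathway genes named by rule, only Fbxw7, Fbxo4 and Ezh2 lost calls, in 18 fits, while 438 fits kept the call. Depth limits Cdkn1c, with 3 to 6 reads per control library, and Cdkn2b, with 20 to 27 in each library.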

Other observations

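Coding genes annotated within 200 kb of the members were higher, lower or not called, with no direction common to all. This window was chosen after the values had been seen, and the genes are given as values. Those named are a selection, and 42.7% of all genes tested were called. Around Cdkn2d, 10 coding genes were tested, of which 5 fell and 1 rose. Around Cdkn1c, 3 coding genes were tested: Cars, a tRNA synthetase gene, rose by 1.04 on the log2 scale and Tnfrsf26 by 1.86, whereas Nap1l4, a histone chaperone gene, fell by 0.36. Around Cdkn1a, the splicing factor gene Srsf3 fell by 0.65 and Ppil1 by 1.08 (limma adjusted p = 1.5e-07 and 7.3e-07), and 3 other genes were not called. Mtap, next to Cdkn2a and Cdkn2b, was at 141 normalised read counts in control and 135 in midkine libraries and was not called. The 2 genes tested around Cdkn2c, Faf1 at 9399 bases and Rnf11, rose by 0.50 and 0.64 on the log2 scale while Cdkn2c fell. Tigar, 15605 bases from Ccnd2, was at 80.8 and 79.6 and was not called, and Rad51ap1, a DNA repair gene farther away, fell by 0.76 while Ccnd2 rose.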
